A study of Mus musculus with 4 samples.

Results

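The genes of S phase and DNA replication were followed in RNA from mouse cells sorted as otic cells, comparing libraries labelled Brg1cKO with controls. The set was chosen by name and holds 33 genes of origin licensing, the replication fork, nucleotide synthesis and entry into S phase, out of 52636 gene identifiers in the count tables. All 33 were matched to an identifier, had reads in every library and passed the filter on low counts, after which 16557 genes were tested. The control group held 2 libraries of genotype Control and the other group 2 libraries of genotype Brg1cKO, a conditional knockout of Brg1, and both were made from otic ectoderm purified from otocysts, the vesicles that form the inner ear. Each library came from 3000 sorted cells and was read over 75 bp. The Cre driver, the age of the embryos and what the controls carry are not stated by the labels. Nor is it stated whether replicates came from separate embryos or sorts, so p-values here reflect the spread between these libraries only, which may be technical.

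Before a cell copies its DNA, the origin recognition complex, Cdc6 and Cdt1 load rings of the 6 proteins Mcm2 to Mcm7 onto replication origins. In S phase Cdc45 and the GINS complex turn each ring into the active helicase, and polymerases, the clamp Pcna and newly made nucleotides follow. Most of these genes are transcribed under E2F transcription factors, which the retinoblastoma protein holds back until cyclins D and E release them. Brg1 is the ATPase of a chromatin remodelling complex known to work with the retinoblastoma protein. The otocyst grows by rapid division, so its cells make these transcripts in quantity.

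Gene reads numbered 15357265 and 19132360 for the controls, fewer than the 29361382 and 25875555 for the libraries labelled Brg1cKO. Smarca4, the gene for Brg1, stood at 816 and 815 CPM in control libraries against 891 and 848 CPM in those labelled Brg1cKO. CPM here is the count scaled to the size of its library by the trimmed-mean (TMM) method. Which exons were deleted is not stated, so this whole-gene value checks the labels little. Directions below rest on the labels alone. The groups also differed in the summed levels of cell type markers. Otic epithelium markers summed to 1875 to 1928 CPM among the controls against 299 to 327 CPM, with a negative log2 fold change in 12 of 12 and Fbxo2 at 0 in control 2 and Brg1cKO 2. Neuroblast and neuron markers summed to 1379 to 1384 CPM against 400 to 459 CPM (negative in 10 of 10). White blood cell markers summed to 435 to 498 CPM against 1793 to 1874 CPM (positive in 14 of 14), and cardiac and muscle markers to 119 to 193 CPM against 897 to 904 CPM (positive in 10 of 10, Tnni1 and Myl7 at 0 in control 2). Of the red blood cell markers, 11 of 12 are reported, with sums of 617 to 669 CPM against 214 to 227 CPM, negative in 8 of 10 tested, and Hbb-bs, Klf1 and Gata1 each at 0 in at least 1 library. Endothelial markers summed to 2478 to 2670 CPM against 2964 to 3012 CPM (positive in 7 of 10, median log2 fold change 0.06). Mesenchyme markers summed to 3794 to 4176 CPM against 3056 to 3135 CPM, with 5 of 10 positive and 5 negative. Single markers that passed by edgeR were Oc90 and Nefm, lower, and Mrc1, higher. The part of these cell types in the values below was not tested. In bulk RNA, more cells in S phase and more transcript per cell cannot be told apart.

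None of the 33 replication genes passed, at an adjusted p under 0.05 by edgeR, in a comparison where 0.0302% of all genes passed, 0.0121% higher and 0.0181% lower. The lowest adjusted p among them was 0.323, for Mcm4. Most lay on the higher side in the libraries labelled Brg1cKO. The fitted log2 fold change of Brg1cKO over control was positive for 22 of 33 (66.7%), beside 51.5% of all genes tested, and its median was 0.21 (quartiles -0.07 and 0.50), beside 0.03 over all genes. That gap between the medians depended on the setting, because the median over all genes moved more than that of the members. Without control 1 the members stood at 0.21 and all genes at 0.29, and without control 2 at 0.31 and 0.29. With every gene of at least 1 count they stood at 0.20 and 0.21. These 3 fits tested more genes, 19954, 19907 and 25174. With a minimum count of 50, which kept 13850 genes, the members stood at 0.20 and all genes at -0.008. In 14 members (42.4%) both libraries labelled Brg1cKO lay above both controls, beside 26.3% of all genes, and in 3 (9.09%) both lay below, beside 17.8%. At an unadjusted p under 0.05, 5 members were higher (15.2%), beside 7.66% of all genes, and 0 were lower, beside 4.80%. The members are better expressed than most genes. Among the 9227 genes whose average log2 CPM was 4 or more, a level that 32 members reach, 48.9% were positive. Both libraries labelled Brg1cKO lay above both controls in 23.1% of them and below in 22.5%. At an unadjusted p under 0.05 by edgeR, 5.56% were higher and 7.04% lower. The median log2 fold change of these 9227 genes was -0.014.

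Added over the 33 genes, the level was 3502 and 3676 CPM in control libraries against 4190 and 4413 CPM in those labelled Brg1cKO. The groups did not overlap in this sum, whose mean was 19.9% higher in the libraries labelled Brg1cKO. Mcm2 to Mcm7 gave 40.3% to 42.4% of it in 3 of the libraries and 43.9% in Brg1cKO 2. These 6 genes held 391 CPM of the 713 CPM between the group means.

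**Figure D1:**
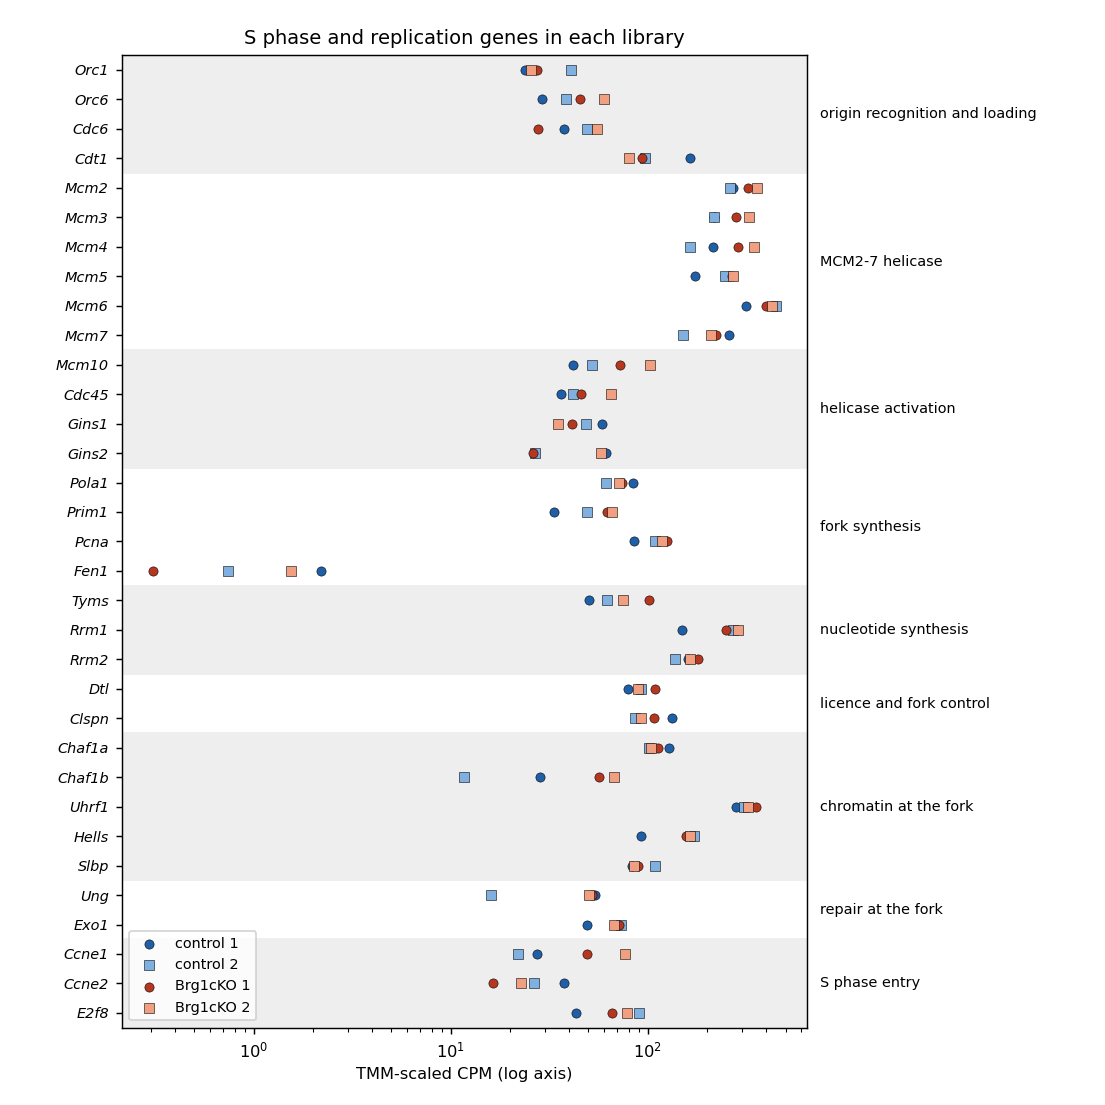
Level of each of the 33 genes in each library as TMM-scaled CPM on a log axis, grouped by role; blue symbols are the 2 controls and red symbols the 2 libraries labelled Brg1cKO. Both red symbols lie above both blue ones for 14 genes and below for 3, and Fen1 lies far to the left of all others.

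E2F letters in the promoter are a feature that some of these genes share and that did not enter their choice. In RefSeq promoter windows of GRCm38.p6, from 250 bases before to 50 after each start, 28 of the 33 genes had an entry, with 31 windows. The E2F site was searched on both strands as TTTCCCGC, TTTCGCGC, TTTGCCGC or TTTGGCGC, and was found in 12 of the 31 windows (38.7%), beside 3.67% of the 14614 windows of tested genes. Another motif, the cell cycle homology region (TTTGAA or TTCGAA, both strands), through which genes of G2 and mitosis are known to be repressed earlier in the cycle, was found in 5 of the 31 windows (16.1%), beside 13.8% of the windows of tested genes. In the 28 windows of G2 and mitosis genes the shares were the other way round, with the E2F letters in 3.57% and the homology region in 82.1%. Among 58 windows of other replication genes they were 22.4% and 20.7%. The windows that follow show the E2F letters of members where they lie before a RefSeq start and outside annotated exons, with 20 bases to each side up to the start. Capitals mark the E2F letters, in the direction of the gene.
Cdc6: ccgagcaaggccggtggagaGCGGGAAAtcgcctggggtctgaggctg
Mcm5: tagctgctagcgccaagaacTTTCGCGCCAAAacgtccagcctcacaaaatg
Mcm6, distal: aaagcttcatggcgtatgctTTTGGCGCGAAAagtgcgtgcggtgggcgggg
Mcm6, proximal: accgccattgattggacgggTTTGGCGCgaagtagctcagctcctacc
Pola1: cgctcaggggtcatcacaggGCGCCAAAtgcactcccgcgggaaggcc
Dtl: atcagaaagcgtgacgtcagTTTGGCGC
Uhrf1: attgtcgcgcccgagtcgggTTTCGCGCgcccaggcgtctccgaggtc

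In GRCm38.p6 these windows lie at chr11:98907993-98908040 (plus strand) for Cdc6, chr8:75109336-75109387 (plus) for Mcm5, chr1:128359784-128359835 and chr1:128359725-128359772 (minus) for Mcm6, chrX:93632266-93632313 (minus) for Pola1, chr1:191575545-191575572 (minus) for Dtl and chr17:56304108-56304155 (plus) for Uhrf1. The Uhrf1 window lies before the downstream of 2 RefSeq starts and inside the GENCODE gene, and the promoter window of its upstream start holds no E2F letters. The Cdc6 window also lies inside the GENCODE gene, which starts at 98907801, upstream of the RefSeq start. In Mcm5 and in the distal site of Mcm6, 2 overlapping matches on opposite strands make up the capitals. Orc1, Mcm7 and Hells also held the letters before the start, in windows that touch an annotated exon, and Cdt1, Mcm3 and Clspn held them after it. The 12 genes with the letters had a median log2 fold change of 0.09, 7 of them positive. The 16 with an entry but without the letters had a median of 0.43, 13 of them positive, and among these are Mcm10, Chaf1b and Ccne1. No test was made of that split, and a match of letters is a description of the window, not a measured binding site.

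**Figure D2:**
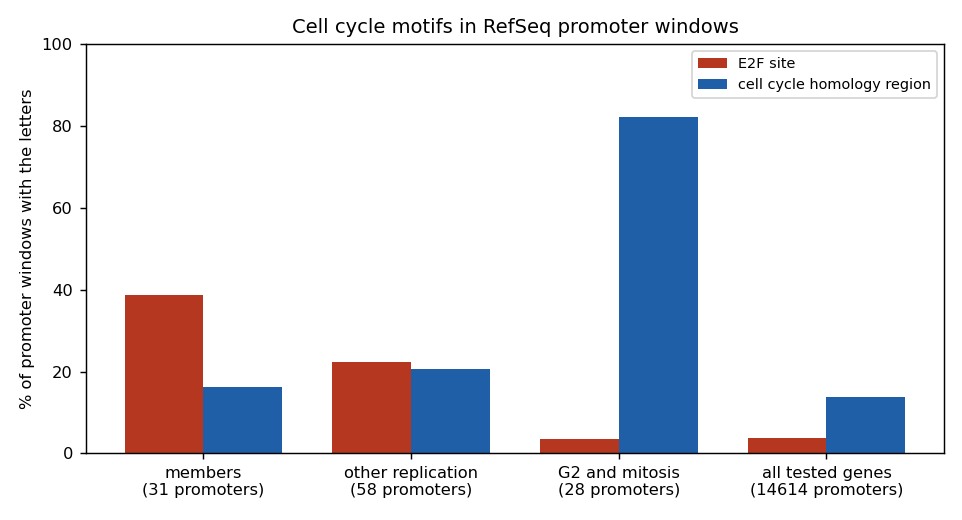
Share of RefSeq promoter windows, in percent, that hold the E2F letters (red) or the cell cycle homology region (blue) in 4 sets of genes. The E2F letters are in 38.7% of the windows of the 33 genes and 3.57% of those of G2 and mitosis genes, and the homology region is in 16.1% and 82.1%.

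The ring subunits Mcm2 to Mcm7 were all positive, beside 51.5% of all genes. For 4 of the 6 (66.7%) both libraries labelled Brg1cKO lay above both controls, beside 26.3% of all genes. Mcm4 stood at 214 and 163 CPM in control libraries against 286 and 346 CPM in those labelled Brg1cKO. Both of the latter lay above both controls, and the log2 fold change was 0.75 ± 0.20 (SE; 95% interval 0.27 to 1.23; adjusted p = 0.323, edgeR). Mcm3 stood at 217 and 216 CPM against 282 and 325 CPM. Its controls were nearly equal, and its log2 fold change was 0.49 ± 0.16 (adjusted p = 0.368, edgeR). Mcm2 stood at 271 and 261 CPM against 321 and 359 CPM, also without overlap, with a log2 fold change of 0.36 (adjusted p = 0.403, edgeR). Mcm5 stood at 174 and 247 CPM against 269 and 272 CPM, so the higher control came close to the other group. The remaining subunits overlapped between groups. Mcm6 stood at 315 and 445 CPM against 397 and 425 CPM, and Mcm7 at 258 and 151 CPM against 222 and 208 CPM. In both the controls enclosed the libraries labelled Brg1cKO. The intervals of their differences ran from -0.33 to 0.55 for Mcm6 and from -0.56 to 0.70 for Mcm7 on the log2 scale, which leaves room for a change in either direction. In mm10, Mcm4 (ENSMUSG00000022673) lies on chromosome 16 from 15623897 to 15637400 and Mcm3 (ENSMUSG00000041859) on chromosome 1 from 20802968 to 20820312, both on the minus strand.

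The ring holds a single copy of each subunit, so their levels per length were set side by side. Per kilobase of merged exons, the subunits ranged from 38.9 (Mcm2) to 67.4 (Mcm6) CPM in control 1 and from 34.1 (Mcm7) to 95.3 (Mcm6) in control 2. In Brg1cKO 1 they ranged from 46.1 (Mcm2) to 85.1 (Mcm6) and in Brg1cKO 2 from 47.1 (Mcm7) to 96.4 (Mcm4). The highest thus exceeded the lowest by 1.73 and 2.79 times in the controls and by 1.85 and 2.05 times in the others. The order depended on the length used. Per kilobase of the longest transcript Mcm2 was the highest of the 6 in both libraries labelled Brg1cKO, and the ratio there was 1.23 and 1.46. By that length the ratio was 1.70 in control 1, with Mcm7 the highest, and 2.25 in control 2, with Mcm6 the highest.

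**Figure D3:**
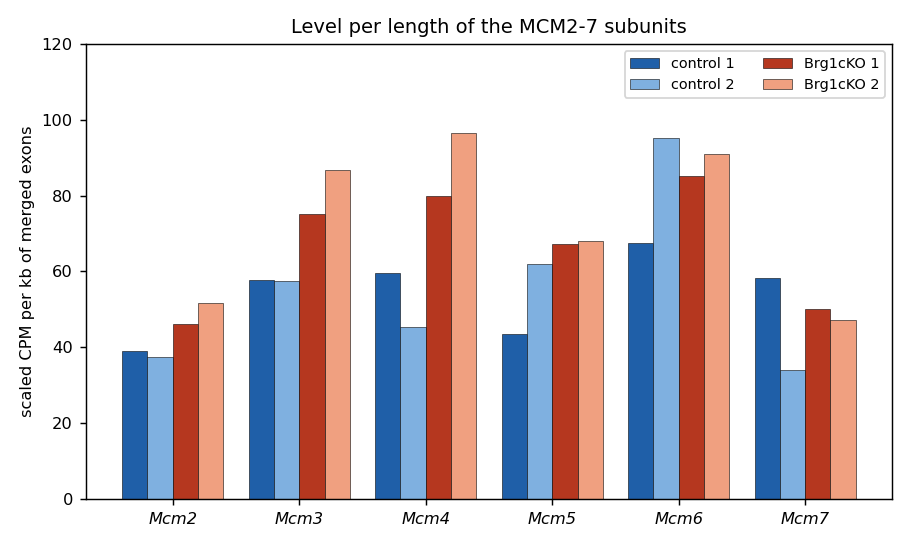
Level of the 6 ring subunits as scaled CPM per kilobase of merged exons, with a bar for each library (blue controls, red Brg1cKO). In Mcm2, Mcm3, Mcm4 and Mcm5 both red bars stand above both blue ones, while in Mcm6 and Mcm7 the 2 controls enclose them.

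The genes that recognise origins and load the ring lay on both sides of 0. Orc6, a subunit of the origin recognition complex, stood at 29.2 and 38.4 CPM in control libraries against 45.4 and 60.2 CPM in those labelled Brg1cKO, without overlap. Orc1, its ATPase subunit, stood at 23.7 and 40.6 CPM against 27.4 and 25.5 CPM and overlapped. Cdc6, which joins the complex to admit the ring, stood at 37.7 and 49.0 CPM against 27.7 and 54.9 CPM, so that the libraries labelled Brg1cKO enclosed the controls. Cdt1, which escorts the ring to the origin, was on the lower side. It stood at 164 and 97.2 CPM against 93.3 and 80.3 CPM, with a log2 fold change of -0.59 ± 0.32 (adjusted p = 0.553, edgeR). Control 1 alone stood well above the other 3 libraries, and control 2 lay within 5 CPM of Brg1cKO 1.

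Among the genes that turn the loaded ring into a moving helicase, Mcm10 had the highest log2 fold change. Mcm10, which activates the helicase and is not part of the ring, stood at 41.9 and 52.1 CPM in control libraries against 72.0 and 102 CPM in those labelled Brg1cKO. The groups did not overlap, and the log2 fold change was 0.89 ± 0.35 (adjusted p = 0.368, edgeR). Mcm10 (ENSMUSG00000026669) lies on chromosome 2 from 4989714 to 5012791 in mm10. Cdc45, the helicase partner, stood at 36.4 and 41.7 CPM against 45.7 and 64.8 CPM, again without overlap. The GINS subunits, parts of the same helicase, were not positive. Gins1 stood at 58.4 and 48.8 CPM against 41.3 and 34.8 CPM, below both controls, while Gins2 stood at 61.2 and 26.8 CPM against 26.3 and 57.5 CPM, with a low and a high library in each group. Gins2 shares 2758 of its 4097 exonic bases (67.3%) with Gse1 on the opposite strand, and whether the counting used strand is not stated, so its count is uncertain.

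For synthesis at the fork, Prim1, the primase subunit that lays down RNA primers, stood at 33.3 and 48.9 CPM in control libraries against 61.7 and 65.5 CPM in those labelled Brg1cKO. Pcna, the sliding clamp, stood at 85.2 and 109 CPM against 125 and 118 CPM. In both genes the groups did not overlap, with adjusted p of 0.620 and 0.738 by edgeR. Pola1, the catalytic subunit of DNA polymerase alpha, stood at 84.5 and 61.4 CPM against 73.7 and 71.4 CPM, a log2 fold change of -0.01 with a 95% interval from -0.76 to 0.75. Fen1, the nuclease that trims Okazaki fragments, was nearly absent from the tables, with 34 and 14 reads in the controls and 9 and 40 reads in the libraries labelled Brg1cKO. Of its 2422 exonic bases, 1909 (78.8%) are shared with Gm10143, annotated as antisense, and 130 with Tmem258, so this count is uncertain too and was read no further. Pcna and Tyms have annotated pseudogenes (Pcna-ps1, Pcna-ps2 and Tyms-ps), with which reads may be shared.

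All 3 genes of nucleotide synthesis had a positive log2 fold change, beside 51.5% of all genes. Tyms, which makes thymidylate, stood at 50.2 and 62.4 CPM in control libraries against 102 and 75.2 CPM in those labelled Brg1cKO, and Rrm2, the small subunit of ribonucleotide reductase, at 160 and 138 CPM against 181 and 163 CPM. Neither overlapped, although for Rrm2 the nearest libraries lay 2.87 CPM apart. Rrm1, the large subunit, stood at 150 and 272 CPM against 250 and 286 CPM and overlapped because of control 2. None passed, with adjusted p of 0.515, 0.799 and 0.745 by edgeR.

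Chaf1b had the highest log2 fold change of the 33. Together with Chaf1a it belongs to chromatin assembly factor 1, which places histones on new DNA. It stood at 28.3 and 11.6 CPM in control libraries against 56.5 and 67.0 CPM in those labelled Brg1cKO. The groups were well apart, but the controls differed by 2.44 times between themselves, and the log2 fold change of 1.63 ± 0.54 had a 95% interval of 0.36 to 2.89 (adjusted p = 0.368, edgeR). Chaf1b (ENSMUSG00000022945) lies on chromosome 16 from 93883901 to 93906115 (mm10). Its partner Chaf1a stood at 128 and 102 CPM against 113 and 104 CPM and overlapped, with 4648 of its 8854 exonic bases (52.5%) shared with Ubxn6 on the opposite strand. Uhrf1, which carries DNA methylation over to the new strand, stood at 280 and 308 CPM against 353 and 321 CPM. Hells, a remodeler also tied to DNA methylation, stood at 92.6 and 171 CPM against 157 and 163 CPM, and Slbp, which binds histone messages, at 83.6 and 108 CPM against 89.4 and 84.9 CPM. Only Uhrf1 among these 3 kept the groups apart.

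The cyclins of S phase entry lay on opposite sides. Ccne1, for cyclin E1, stood at 27.3 and 21.9 CPM in control libraries against 49.1 and 76.4 CPM in those labelled Brg1cKO, with a log2 fold change of 1.35 ± 0.44 (95% interval from 0.33 to 2.38, adjusted p = 0.368, edgeR). Ccne2, for cyclin E2, stood at 37.5 and 26.6 CPM against 16.5 and 22.8 CPM, with -0.71 ± 0.55 (95% interval from -1.99 to 0.58, adjusted p = 0.733, edgeR). Neither pair of groups overlapped, and no test was made between the cyclins. Per kilobase of merged exons both averaged 9.2 CPM in the controls. In the libraries labelled Brg1cKO Ccne1 averaged 23.6 and Ccne2 averaged 5.62. Per kilobase of the longest transcript the control averages were not equal, 12.3 for Ccne1 and 10.7 for Ccne2. Those of the libraries labelled Brg1cKO were then 31.4 and 6.53. Ccne1 (ENSMUSG00000002068) lies on chromosome 7 from 38097984 to 38107534 in mm10, and Ccne2 shares 609 of its 3495 exonic bases with Ints8 on the opposite strand. E2f8, a repressor of E2F targets that is itself made in S phase, stood at 43.0 and 90.5 CPM against 65.8 and 78.4 CPM and overlapped.

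Genes that guard the fork and repair DNA there overlapped between the groups in every case. Dtl, which directs the destruction of Cdt1 in S phase, stood at 79.4 and 92.4 CPM in control libraries against 109 and 89.0 CPM in those labelled Brg1cKO. Clspn, an adaptor of the checkpoint kinase Chek1, stood at 133 and 86.5 CPM against 107 and 92.6 CPM. Exo1, an exonuclease, stood at 49.2 and 72.7 CPM against 71.7 and 67.3 CPM. Ung, which removes uracil from DNA, stood at 54.0 and 16.02 CPM against 52.2 and 50.2 CPM, so that control 2 alone stood apart.

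**Figure D4:**
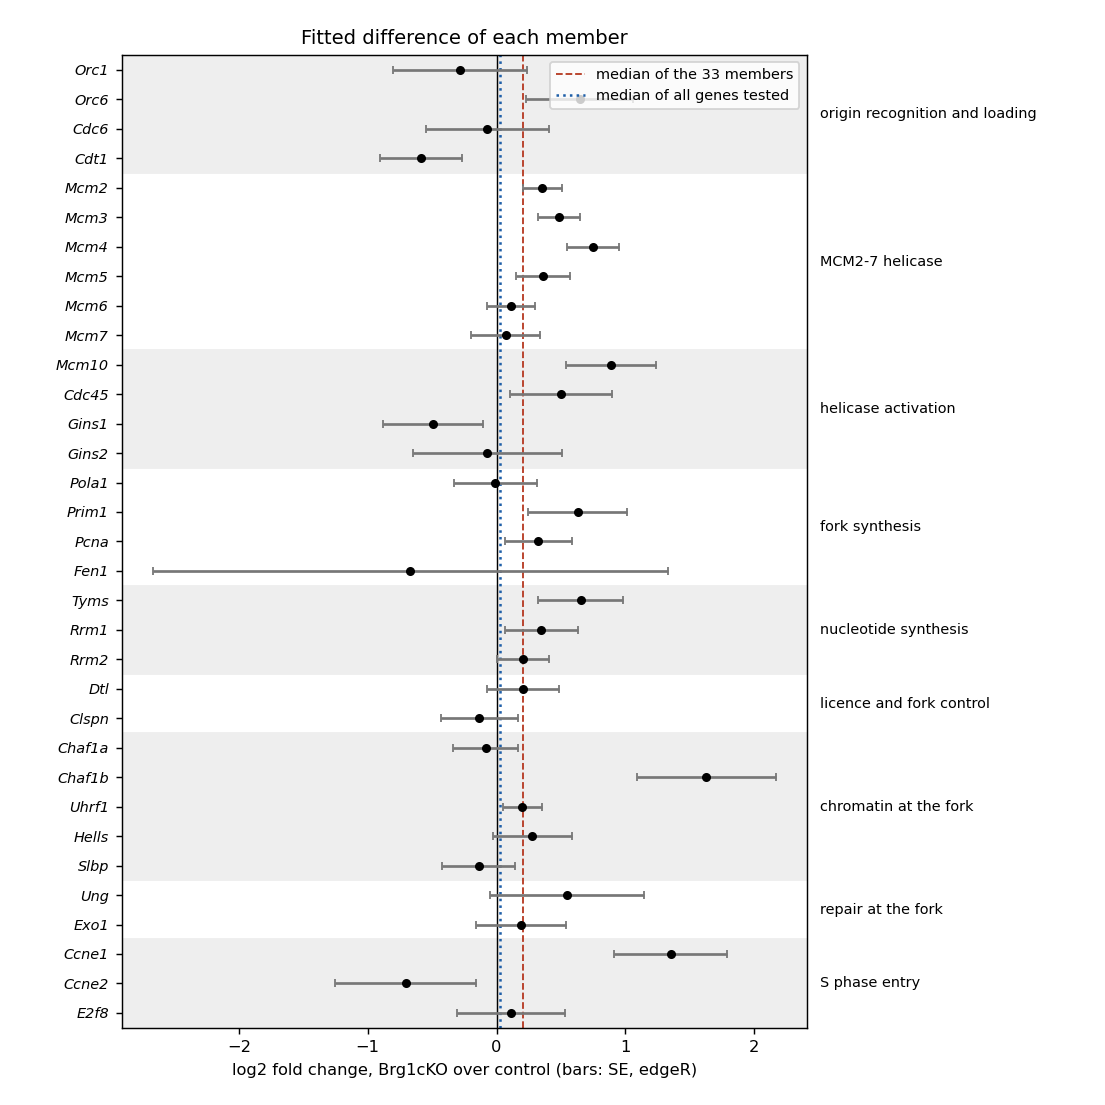
Fitted log2 fold change of Brg1cKO over control for each of the 33 genes by role, with bars of 1 SE from edgeR, and dashed and dotted lines at the median of the members (0.21) and of all genes tested (0.03). Chaf1b and Ccne1 lie farthest to the right, Fen1 has the widest bar, and no gene passed the test.

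Calls on these genes depended on the control libraries. With a lone control the fit takes its spread from the libraries labelled Brg1cKO. Without control 1, 7 of the 33 genes passed by edgeR (21.2%), beside 17.6% of all genes (8.82% higher and 8.82% lower). All 7 were higher, namely Mcm2, Mcm3, Mcm4, Mcm7, Chaf1b, Ung and Ccne1. Without control 2, 11 passed (33.3%), beside 16.9% of all genes (8.46% higher and 8.39% lower). Of these Mcm3, Mcm4, Mcm5, Mcm6, Mcm10, Tyms, Rrm1, Chaf1b, Hells and Ccne1 were higher and Cdt1 was lower. Mcm3, Mcm4, Chaf1b and Ccne1 stand in both lists. Without Brg1cKO 1 or Brg1cKO 2, none of the 33 passed, where 45 and 33 of all genes did. DESeq2 called Mcm3, Mcm4, Mcm10, Chaf1b and Ccne1, all higher (15.2%), beside 14.6% of all genes (8.33% higher and 6.30% lower), and these are the same 5 that had an unadjusted p under 0.05 by edgeR. With every gene of at least 1 count in the edgeR fit, Mcm4 alone passed, higher, beside 1.66% of all genes (0.651% higher and 1.01% lower). Over the alternatives, adjusted p ran from 2.31e-07 to 1.0 for Mcm4, from 0.00963 to 1.0 for Mcm3, from 0.00805 to 1.0 for Mcm10, from 1.22e-06 to 1.0 for Chaf1b and from 0.00129 to 1.0 for Ccne1.

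Set against each control alone, 15 of the 33 genes were positive both times (45.5%), beside 35.4% of genes tested in all fits, and 3 were negative both times (9.09%), beside 23.5%. The sign differed between the controls for the other 15 (45.5%), beside 41.1% of genes. Among genes whose average log2 CPM was 4 or more, 30.7% were positive both times, 29.4% were negative both times and 39.9% differed in sign. The members positive both times were Mcm2, Mcm3, Mcm4 and Mcm5 of the ring, Orc6, Mcm10, Cdc45, Prim1, Pcna, Tyms, Rrm2, Dtl, Chaf1b, Uhrf1 and Ccne1. Ung shows the opposite case, with -0.10 against control 1 alone and 1.68 against control 2 alone. Between replicates, the log2 ratio over the 33 genes had an SD of 0.68 in the controls and 0.41 in the libraries labelled Brg1cKO, where over all tested genes it was 1.65 and 0.90.

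**Figure D5:**
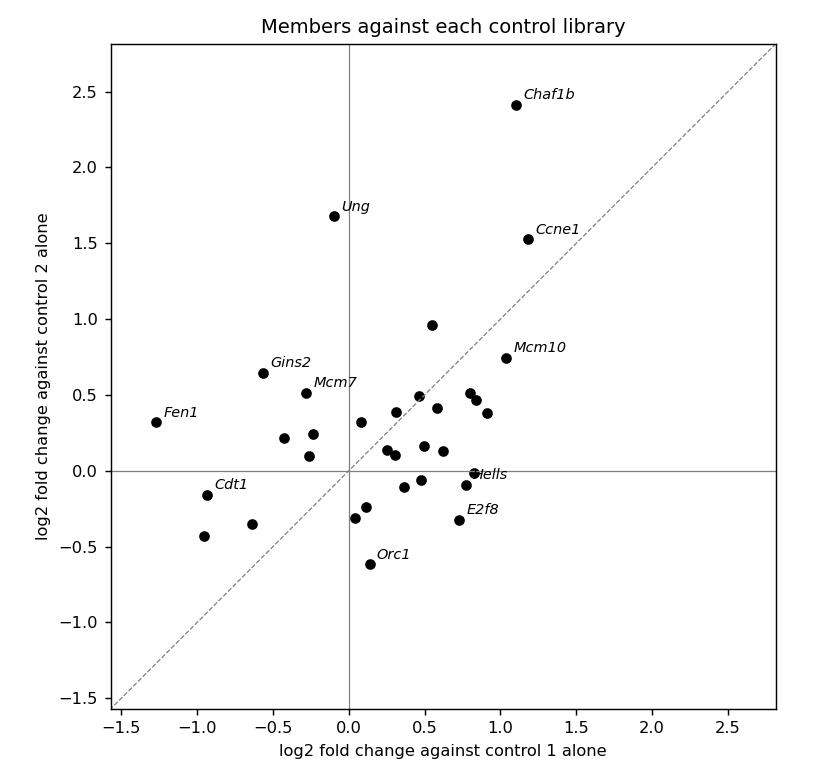
Log2 fold change of the libraries labelled Brg1cKO for each of the 33 genes against control 1 alone (x axis) and control 2 alone (y axis), with a dashed line of equality. Points in the upper right quadrant are the 15 genes positive both times, and Ung, Chaf1b, Gins2 and Fen1 lie far from the line.

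The rest of the replication machinery was also more often positive than negative, and no test compares it with the 33 genes. Of 61 other replication genes, 59 were tested and 0 passed in either direction by edgeR, with 4 higher and 1 lower at an unadjusted p under 0.05, beside 7.66% and 4.80% of all genes. In this list 37 of 59 were positive (62.7%), beside 51.5% of all genes, the median log2 fold change was 0.11, and both libraries labelled Brg1cKO lay above both controls in 16 (27.1%) and below in 6 (10.2%), beside 26.3% and 17.8% of all genes. The lowest p values belonged to Pole, the catalytic subunit of DNA polymerase epsilon (63.3 and 77.6 CPM against 147 and 120 CPM), its partner Pole2 (4.22 and 7.16 against 27.5 and 25.8 CPM), Rnaseh2b of ribonuclease H2 (12.1 and 22.1 against 49.8 and 48.7 CPM) and Samhd1, which breaks down nucleotides and is known from macrophages (76.7 and 64.9 against 111 and 171 CPM). All 4 stood without overlap on the higher side, in the same libraries as the higher white blood cell and cardiac marker sums, whose part was not tested. Their adjusted p lay between 0.361 and 0.368 by edgeR.

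The regulators of these genes were positive about as often as all genes. In the E2F and RB network 12 of 23 tested genes (52.2%) had a positive log2 fold change, beside 51.5% of all genes. The median was 0.06, beside 0.03, and 0 passed by edgeR. At an unadjusted p under 0.05, 1 was lower and 0 higher, beside 4.80% and 7.66% of all genes. The lower gene was Mycn, a driver of growth in neural progenitors. It stood at 137 and 90.4 CPM in control libraries against 75.4 and 55.0 CPM in those labelled Brg1cKO (adjusted p = 0.385, edgeR). Cdk6, a kinase that acts on the retinoblastoma protein, stood at 25.9 and 45.9 CPM against 72.3 and 67.8 CPM. Cdc25a, which activates the S phase kinase, averaged 93.8 CPM for the controls against 136 CPM. Ccnd1, for cyclin D1, averaged 311 CPM against 246 CPM, the other direction. None of these 3 passed (adjusted p from 0.411 to 0.511, edgeR). Skp2 had 0 reads in every library and was not tested. Of 7 CDK inhibitors, 6 were tested, 3 of them positive, and 0 passed by edgeR, with 1 higher at an unadjusted p under 0.05. That gene, Cdkn1c, stood at 338 and 320 CPM against 437 and 470 CPM (adjusted p = 0.353, edgeR).

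Genes of the later cell cycle were also more often positive than negative. Of 30 genes of G2 and mitosis, all tested, 0 passed by edgeR. At an unadjusted p under 0.05, 1 was higher and 0 lower, beside 7.66% and 4.80% of all genes. In 21 (70.0%) the log2 fold change was positive, beside 51.5% of all genes, and the median was 0.12, beside 0.03. Both libraries labelled Brg1cKO lay above both controls in 10 (33.3%) and below in 1 (3.33%), beside 26.3% and 17.8% of all genes. Of the 10, Kif11 had few reads, 2 and 7 in the controls and 25 in each library labelled Brg1cKO. Hmmr, a spindle protein, stood at 58.1 and 60.5 CPM in control libraries against 121 and 109 CPM in those labelled Brg1cKO (adjusted p = 0.348, edgeR). Tacc3, another spindle protein, averaged 107 CPM against 153 CPM, Top2a, which untangles chromosomes, 566 CPM against 670 CPM, and Ccnf, for cyclin F, 66.5 CPM against 115 CPM. These 3 had adjusted p from 0.428 to 0.476 by edgeR. The sum over the S phase genes was 0.776 and 0.794 times that over the G2 and mitosis genes in the controls, and 0.827 and 0.925 times in the libraries labelled Brg1cKO. The groups did not overlap in this ratio, and the spread between the libraries labelled Brg1cKO was wider than the gap between the groups.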

How the data were processed

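RNA-seq read counts of 4 libraries were used. The authors deposited raw counts per gene as whole numbers, with no normalization. The submitters' processing notes list HISAT2, HTSeq, DESeq2 and the build mm10, without roles or versions. The strand setting of the counting is not given in the sources used here. Besides the overlaps given above, Orc1, Orc6, Mcm7, Cdc45, Slbp and E2f8 share exonic bases with opposite-strand genes. For no single such gene does the share exceed 11.2% of the member's exonic bases. Per the labels' protocols the kit was a strand-specific, random-primed one. Records assigned to no gene, on 5 summary lines per table, were set aside. They made up 51.8% and 50.7% of all records in the controls and 36.0% and 36.3% in the libraries labelled Brg1cKO. Symbols and positions came from GENCODE release M21, and promoter windows from RefSeq (GRCm38.p6). Of the 31 windows, 26 held a stretch shortly after the start that was found in a GENCODE transcript of the gene. A protein sequence table was not used here. One red blood cell marker is not reported here, and its list was summed without it.

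edgeR 4.0.16 in R 4.3.3 was run on all genes kept by filterByExpr with a minimum count of 10, with TMM scaling, a robust quasi-likelihood fit in its installed default form, group as the only term and Benjamini-Hochberg adjustment over all tested genes. Genes were called under 0.05. SE and intervals come from the F-test. Log2 ratios between replicates were taken after adding 0.5 CPM. The fit was run on simulated counts with known changes as a check of the code, and its outcome is not used here. The members and lists were chosen with earlier results of these data known, and the comparison with genes of average log2 CPM of at least 4 was added after seeing the data. All 33 members are named, with up to 4 genes of smallest p from each other list. Skp2, Kif11 and the cell type markers that passed or stood at 0 are named too, and were chosen after their values were seen. Intervals cover the spread between libraries, and amplified reads are not independent molecules. Alternatives were other scalings, filters, tools (DESeq2 1.42.0, limma 3.58.1), moderation, gene sets, equal depth, a replicate block and each library left out. Same-numbered deviations had a correlation of 0.0052 over 16557 genes, which gives no sign of pairing by replicate number but cannot exclude it. Replicates differed by more than sampling noise (chi-square per degree of freedom of 119 in the controls and 44.0 in the others).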

Additional observations from a re-analysis of the deposited data

How the results depend on the processing

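The count of 0 members called held except in 4 settings, DESeq2, the lowest count filter and either control left out. It was 1 under a filter of 1 count and 5 by DESeq2, and ranged from 0 to 11 with each library left out. Other replication genes gave 1 and 4 in the same settings and 0 to 11 with a library left out. With DESeq2 the E2F and RB network, G2 and mitosis genes and CDK inhibitors gave 1 each, and with a library left out 0 to 6, 0 to 8 and 0 to 1. The DESeq2 counts in these 4 lists came from 59, 23, 30 and 6 tested genes, beside 14.6% of all genes called. The filter of 1 count called 1.66% of all genes. Without either control, many more of all genes were called too. No test compared these list counts with those of all genes, so no conclusion is drawn from them. The members' median log2 fold change ranged from 0.21 to 0.31 with a library left out and stayed within the replicate spread otherwise. The median over all genes was 0.03 in the main setting. It was 0.29 without either control, 0.21 under the filter of 1 count and 0.16 with voom or the block. The members then stood close to it or below it (0.21, 0.31, 0.20, 0.20 and 0.21). With a minimum count of 50 the median over all genes was -0.008, and the members stood at 0.20. The replicate block, with 0 members called and a median of 0.21, changed no call on these lists. Over all genes it called 140, beside 5 in the main setting. The ratio of highest to lowest ring subunit in the libraries labelled Brg1cKO, a mean of 1.95 per merged exon length, was 1.34 per longest transcript. In control 1 and control 2 it was 1.73 and 2.79 per merged exon length and 1.70 and 2.25 per longest transcript. Pola1 turned positive with upper quartile scaling (0.031), voom (0.033), newer moderation (0.0089) and the block (0.0094); the cause was not tested. With a library left out, 15 members changed sign. Their log2 fold changes ranged from -0.62 to 0.14 for Orc1, -0.64 to 0.35 for Cdc6, -0.11 to 0.37 for Mcm6, -0.28 to 0.51 for Mcm7, -0.74 to 0.65 for Gins2, -0.24 to 0.24 for Pola1, -2.23 to 0.32 for Fen1, -0.015 to 0.82 for Rrm1, -0.43 to 0.21 for Clspn, -0.26 to 0.10 for Chaf1a, -0.092 to 0.77 for Hells, -0.31 to 0.041 for Slbp, -0.10 to 1.68 for Ung, -0.060 to 0.48 for Exo1 and -0.32 to 0.73 for E2f8. The other 18 kept their sign under every alternative. Fen1 was not fitted at a minimum count of 50. With 2 libraries a group, missing the threshold is no evidence of equal levels.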
